A study of Homo sapiens with 4 samples.

Results

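The genes described here encode 8 enzymes that supply NADPH or feed the pentose phosphate pathway, and they were chosen by name from a table of 61541 genes. PGLS and PGD belong to the oxidative branch of the pathway, TKT, TALDO1 and RPIA to its non-oxidative branch, ME1 and IDH1 make NADPH elsewhere in the cell, and NADK makes the NADP from which NADPH is formed. RNA was sequenced from MDA-MB-231, an established breast cancer cell line, grown without cadmium (2 libraries) or selected for cadmium resistance by serial passage in CdSO4 raised to 10 µM (2 libraries). The control libraries are called control 2 and control 3 after the columns of the count table, and the cadmium-resistant libraries are called cadmium 1 and cadmium 2. The control labels call their samples biological replicates and the cadmium labels call theirs replicates. No source used here says whether the cadmium libraries came from separately selected lines. The p-values therefore set the group difference against spread estimated from these samples alone, and cannot speak for other selections.

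NADPH carries reducing power for biosynthesis and for the repair of oxidative damage, including the recycling of glutathione, which binds cadmium. The oxidative branch of the pentose phosphate pathway makes NADPH from glucose 6-phosphate, and the non-oxidative branch moves sugar phosphates back and forth between that route and glycolysis. In many cells several of these genes are targets of NRF2, a transcription factor of the oxidative stress response that acts through antioxidant response elements, while MTF-1 acts on metal-induced genes through metal response elements.

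The libraries held 51934729 to 61916007 counts assigned to genes. The line's markers were present, with VIM at 571 to 714 TPM (transcript level corrected for gene length and depth) and CD44 at 163 to 203 TPM, while ESR1 and PGR, 2 of the 5 genes listed as low in this line, stayed at or below 0.153 TPM. Of the others on that list CDH1 was at 1.27 to 7.91 TPM, ERBB2 at 34.9 to 47.5 TPM and EPCAM at 21.3 to 71.9 TPM, so ERBB2 and EPCAM were not near 0. Keratins KRT8, KRT18 and KRT19 were high in every library, at 486 to 822 TPM. Of the leukocyte markers, CD3E was at 0 in every library, PTPRC was at 0.015 to 1.22 TPM and CD68 at 0.19 to 0.362 TPM. The 5 fibroblast markers summed to 11.5 to 16.6 TPM. The controls differed from each other more than the cadmium libraries did. Over 12924 genes with a mean of at least 100 normalized counts, the log2 ratio of one control to the other had a robust SD of 0.564, against 0.163 for the cadmium pair. A difference of more than 2-fold was seen for 14.2% of those genes in the control pair and for 0.317% in the cadmium pair. Control 2 stood apart for EPCAM, at 71.9 TPM against at most 25 TPM in the other libraries. Control 2 was also the lowest for the sum of the 3 endothelial markers, at 1.71 TPM against 6.74 to 8.70 TPM elsewhere. PECAM1 carried that sum, while CDH5 and VWF were at 0.459 TPM or less and were lowest in control 3. The part of these differences in the results below was not tested, and in bulk RNA fewer cells of a kind and less RNA per cell cannot be told apart.

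Promoter letters are shown for the members that hold an antioxidant or a metal response element core, the motifs through which NRF2 and MTF-1 are known to act. For cadmium, the paper cites reports of no MTF-1 binding at consensus metal response elements, unlike with excess zinc. The windows reached from 250 bases before to 50 bases after each RefSeq start (GRCh38.p14), and all 8 genes had a window. NADK and IDH1 also had windows at other starts, which held neither core. The antioxidant core was searched as TGACNNNGC and the metal core as TGCACNC or TGCGCNC, on both strands. Each line below runs 5′ to 3′ in the gene's direction with 20 bases on either side of the motif, which is in capitals. A motif in capitals may lie on the opposite strand, so that its reverse complement is read.
PGD, chr1:10398843-10398891, plus strand, antioxidant core on the opposite strand: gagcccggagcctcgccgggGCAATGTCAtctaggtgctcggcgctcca
IDH1, chr2:208255186-208255234, minus strand, antioxidant core: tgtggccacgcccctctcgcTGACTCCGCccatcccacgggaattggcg
ME1, chr6:83431160-83431208, minus strand, antioxidant core: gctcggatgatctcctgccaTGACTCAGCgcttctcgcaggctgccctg
NADK, chr1:1778871-1778917, minus strand, metal core: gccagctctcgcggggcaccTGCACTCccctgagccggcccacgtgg
TALDO1, chr11:747332-747378, plus strand, metal core on the opposite strand: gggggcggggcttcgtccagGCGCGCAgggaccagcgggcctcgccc

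The antioxidant core was in 3 of the 8 genes' promoters (PGD, IDH1 and ME1) and in 16.1% of all genes' promoters, or 13.3% of 35116 promoter windows. The ME1 promoter held it at 137 bases before the start, where the same letters also spell the AP-1 site TGACTCA, the motif of FOS and JUN. A second ME1 match lay 11 bases after the start. The AP-1 site was in that member alone and in 6.05% of all genes' promoters. The metal core was in 2 members (NADK, in 2 places of the same window, and TALDO1) and in 33.4% of all genes' promoters. A looser form of the antioxidant core, TGANNNNGC, which contains every match of the stricter one, was in 5 members and in 47.1% of all genes' promoters. A match here is a run of letters and no measurement of binding.

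No member changed between the groups by the DESeq2 Wald test at an adjusted p below 0.1, which called 225 of 19834 genes, or 1.13%. All 8 were tested, and none reached an unadjusted p of 0.05, which 6.92% of all genes tested did. The estimated log2 fold change was above 0 for 3 members and below 0 for 5, with a median of -0.12 against -0.02 over all genes tested. Cadmium libraries lay outside the control range for 2 members, TALDO1 above and NADK below. Over all genes tested, 20.3% lay above both controls, 19.9% below both and 40.3% outside the range on either side. With 2 libraries against 2, the smallest two-sided p that an exact permutation test allows is 0.33, and edgeR's quasi-likelihood test called 0 genes of 19241, with 1506 at an unadjusted p under 0.05 and a lowest adjusted p of 0.494. limma-voom also called 0 genes, with 1423 at an unadjusted p under 0.05.

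**Figure D1:**
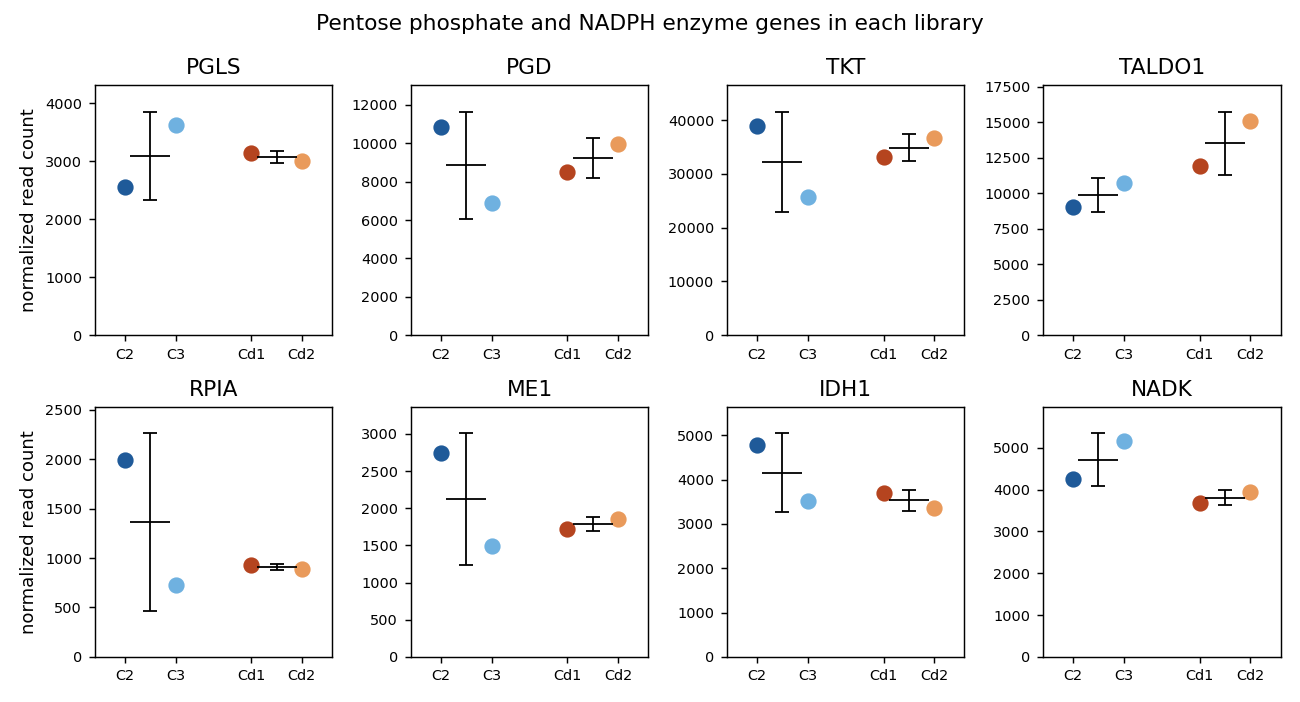
Normalized read counts (y axis, from 0, a scale of its own in each panel) of the 8 genes in control 2 (C2), control 3 (C3), cadmium 1 (Cd1) and cadmium 2 (Cd2), with the mean and SD of each group of 2 libraries in black. The controls sit farther apart than the cadmium libraries for 7 of the 8 genes, and TALDO1 is the exception.

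In the oxidative branch, PGLS encodes 6-phosphogluconolactonase, which opens the lactone made in the branch's opening step. PGLS (ENSG00000130313, hg38 chromosome 19, 17511636 to 17521288) had 2548 (control 2) and 3631 (control 3) normalized counts without cadmium, against 3140 (cadmium 1) and 2998 (cadmium 2). Both cadmium libraries lay between the controls. The estimate for PGLS was -0.01 ± 0.30 on the log2 scale (SE, n = 2 and 2), with a 95% interval of -0.59 to 0.57, and a change inside that interval could not be told from none. Of its 2840 exonic bases, 254 (8.94%) overlap PGLS-DT on the opposite strand. Counting did not use strand and dropped reads shared by genes, so reads there were lost to PGLS.

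PGD encodes 6-phosphogluconate dehydrogenase, the enzyme of this branch that releases CO2 while making NADPH. PGD (ENSG00000142657, chromosome 1, 10398592 to 10420511) had 10825 (control 2) and 6868 (control 3) normalized counts without cadmium, against 8503 (cadmium 1) and 9969 (cadmium 2). Again the cadmium libraries lay between the controls, which differed from each other by -0.66 (log2, control 3 over control 2). For PGD the fitted log2 fold change was 0.06 ± 0.32, with a 95% interval of -0.57 to 0.70. Its pseudogene copy PGDP1 took 3 to 9 counts per library.

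In the non-oxidative branch, TKT encodes transketolase, which moves units of 2 carbons between sugar phosphates and links the pathway to glycolysis. TKT (ENSG00000163931, chromosome 3, 53224712 to 53256052) had 38853 (control 2) and 25624 (control 3) normalized counts without cadmium, against 33128 (cadmium 1) and 36663 (cadmium 2). The cadmium libraries lay between the controls once more. The log2 fold change was 0.11 ± 0.31, with a 95% interval of -0.49 to 0.72. The related genes TKTL1 and TKTL2 had 0 to 2 and 0 counts per library. PGD and TKT kept close to one ratio in every library, with PGD at 0.257 to 0.279 of the normalized counts of TKT.

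TALDO1 encodes transaldolase, the partner of transketolase in this branch. TALDO1 (ENSG00000177156, chromosome 11, 747415 to 765012) had 9044 (control 2) and 10720 (control 3) normalized counts without cadmium, against 11936 (cadmium 1) and 15090 (cadmium 2). Both cadmium libraries lay above both controls, and each of the 4 pairs of a cadmium with a control library gave a positive log2 ratio, from 0.15 to 0.74. The log2 fold change was 0.45 ± 0.28, with a 95% interval of -0.09 to 0.99, an unadjusted p of 0.103 and an adjusted p of 0.864 by the DESeq2 Wald test. By edgeR's quasi-likelihood test the unadjusted p was 0.0619 and the adjusted p 0.643. With 2 libraries a group, neither test told this difference from none. The ratio of TALDO1 to TKT was lowest in control 2, at 0.233, and 0.360 to 0.418 in the other libraries, so it did not separate the groups.

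RPIA encodes ribose 5-phosphate isomerase, which makes the ribose phosphate used for nucleotides. RPIA (ENSG00000153574, chromosome 2, 88691673 to 88750929) had 1997 (control 2) and 726 (control 3) normalized counts without cadmium, against 928 (cadmium 1) and 885 (cadmium 2). Control 2 stood 2.75-fold above control 3, the widest control spread of the 8 genes, and the cadmium libraries lay between them. The log2 fold change was -0.59 ± 0.47, with a 95% interval of -1.52 to 0.34 and an adjusted p of 0.983 by the DESeq2 Wald test. The pseudogene RPIAP1 had 0 counts.

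Outside the pathway, ME1 encodes the cytosolic malic enzyme, which makes NADPH while turning malate into pyruvate. ME1 (ENSG00000065833, chromosome 6, 83210402 to 83431051) had 2747 (control 2) and 1494 (control 3) normalized counts without cadmium, against 1721 (cadmium 1) and 1855 (cadmium 2). The cadmium libraries lay between the controls, near the lower one. For ME1 the fitted log2 fold change was -0.25 ± 0.37, with a 95% interval of -0.96 to 0.47.

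IDH1 encodes the isocitrate dehydrogenase of the cytosol and peroxisome, which makes NADPH while oxidizing isocitrate. IDH1 (ENSG00000138413, chromosome 2, 208236229 to 208266074) had 4778 (control 2) and 3521 (control 3) normalized counts without cadmium, against 3694 (cadmium 1) and 3369 (cadmium 2). Cadmium 2 lay just below control 3 and cadmium 1 just above it, so the groups overlapped. The log2 fold change was -0.23 ± 0.29, with a 95% interval of -0.80 to 0.33. IDH1-AS1 on the opposite strand overlaps 94 of its 4699 exonic bases (2.0%).

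NADK encodes the cytosolic NAD kinase, which phosphorylates NAD to NADP. NADK (ENSG00000008130, chromosome 1, 1751232 to 1780457) had 4263 (control 2) and 5158 (control 3) normalized counts without cadmium, against 3681 (cadmium 1) and 3942 (cadmium 2). Both cadmium libraries lay below both controls, and the 4 pairs of libraries gave log2 ratios from -0.49 to -0.11. For NADK the fitted log2 fold change was -0.31 ± 0.26, with a 95% interval of -0.82 to 0.21 and an unadjusted p of 0.244 by the DESeq2 Wald test. It was not called by any of the tests with all 4 libraries.

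Which control library was used set the direction of 5 of the 8 genes. Against control 2 alone, the mean of the cadmium libraries gave log2 ratios of -1.14 for RPIA, -0.62 for ME1, -0.44 for IDH1, -0.23 for PGD, -0.16 for TKT and 0.27 for PGLS. Against control 3 alone the signs turned, to 0.32 for RPIA, 0.26 for ME1, 0.43 for PGD, 0.45 for TKT and -0.24 for PGLS, while IDH1 was at 0.00. TALDO1 (0.58 and 0.33) and NADK (-0.16 and -0.44) kept their sign against either control. Fitted without control 2, DESeq2 called PGD and TKT higher (log2 0.43 with adjusted p 0.0197 and 0.44 with adjusted p 0.00247) and NADK lower (-0.44 with adjusted p 0.0164), in a fit that called 15% of all genes. Fitted without control 3, it called RPIA (-1.15 with adjusted p 1.17e-08), ME1 (-0.63 with adjusted p 7.32e-04) and IDH1 (-0.45 with adjusted p 0.00927) lower, in a fit that called 31.2% of all genes. No member was called in both of these fits, and none was called when either cadmium library was left out. In the fits without a control the lone control is assumed to vary as the cadmium libraries do, whose spread was the smaller.

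**Figure D2:**
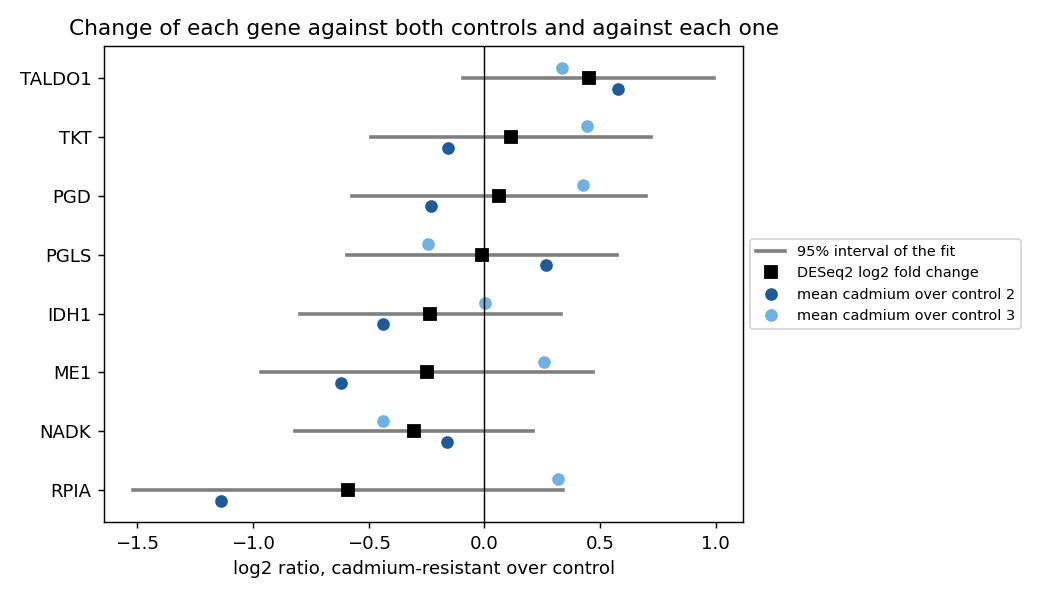
Log2 ratio of cadmium-resistant over control cells (x axis) for each gene (y axis), as the DESeq2 estimate from all 4 libraries (squares, grey lines are 95% intervals) and as the mean of the cadmium libraries over control 2 or over control 3 alone (circles). Every interval spans 0, both circles are clearly on one side of 0 for TALDO1 and NADK, and the IDH1 value against control 3 is 0.00.

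Levels between genes were compared per length. In the median over the 4 libraries TALDO1 stood at 305.6 TPM, TKT at 283 TPM and PGD at 213.4 TPM, followed by PGLS at 83.39, IDH1 at 60.2, NADK at 54.5, ME1 at 41.28 and RPIA at 38.56 TPM. The ranges of the libraries overlapped between each gene and the next in this order, except between PGD (161.2 to 235.3 TPM) and PGLS (65.01 to 99.99 TPM). The pathway's 3 most abundant members were at the 97.4 to 98.4 percentile of detected genes. These levels use the union of all annotated exons, which is 9502 bases for TKT against 2996 bases for its MANE Select transcript, a reference transcript chosen for each gene. With MANE Select lengths, chosen after seeing the data, TKT came first with 154.9 to 221.4 RPKM (reads scaled by length and library total), above TALDO1 in the median (its libraries held 128.7 to 225.2), and the other 6 kept their places.

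Genes on either side on the chromosome were used to set the members beside their surroundings, as the 20 nearest expressed genes on each side. Between control 3 and control 2 the median log2 ratio of the 40 neighbours of RPIA was -0.55, against -0.06 over all expressed genes, and RPIA itself was at -1.46, below all of them. The neighbours of TALDO1 were at 0.51 and TALDO1 at 0.25. For ME1 the neighbours were at -0.05 and the gene at -0.88, with 3 neighbours lower. PGD and TKT also had 3 lower neighbours each, IDH1 had 8, TALDO1 14, NADK 23 and PGLS 34. The neighbour medians of RPIA, TALDO1, PGD (-0.20), TKT (-0.11) and NADK (0.12) thus had the sign of the gene between the controls. Those of PGLS (-0.05) and IDH1 (0.01) had the opposite sign to the gene. The neighbours of ME1 were close to the value over all genes. Between the groups, TALDO1 at 0.45 stood above 37 of its 40 neighbours, whose median was 0.01. NADK at -0.31 (from group means) stood above 4 of its 40 neighbours, whose median was 0.09. RPIA at -0.59 stood above 5, with a neighbour median of -0.24. ME1 at -0.25 also stood above 5, with a neighbour median of 0.09. IDH1 stood above 9 of its neighbours, PGD above 29, PGLS above 31 and TKT above 32. The part of the chromosome region in these differences was not tested.

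**Figure D3:**
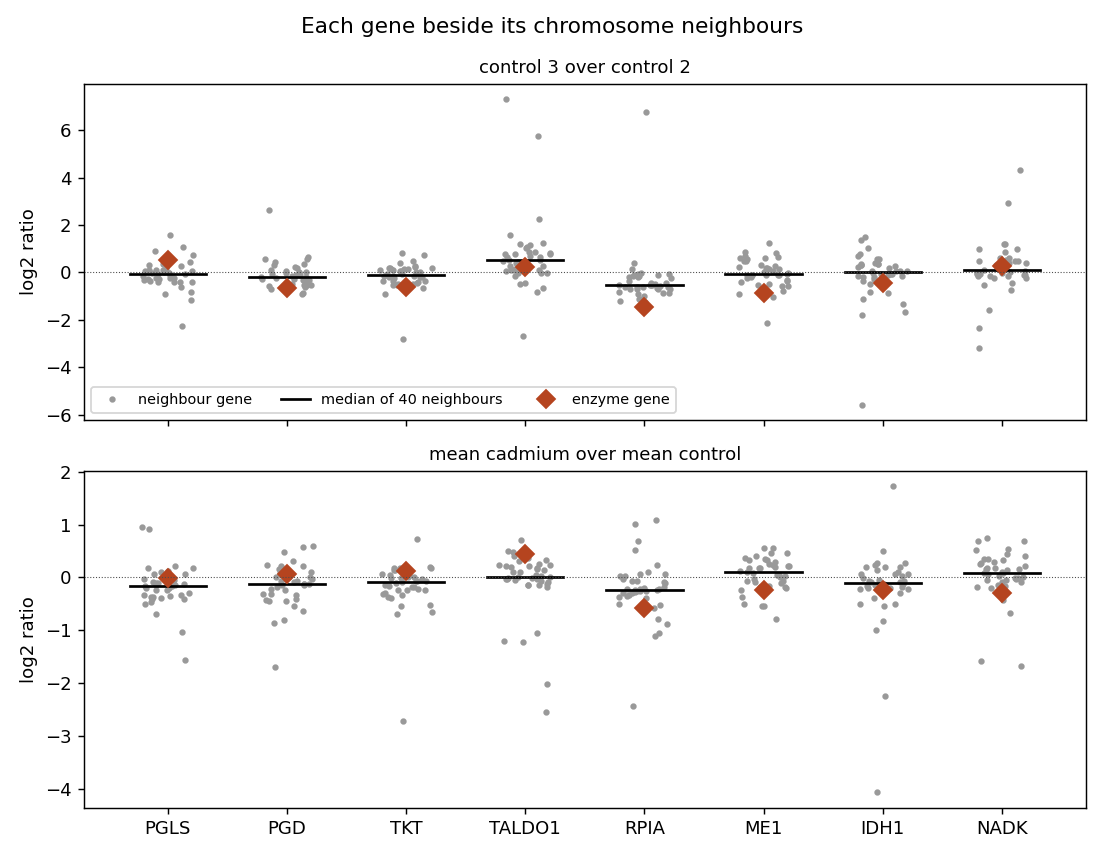
Log2 ratio (y axis) of each gene (diamond), its 40 nearest expressed neighbours (grey points) and their median (line), for control 3 over control 2 (upper panel) and for mean cadmium over mean control (lower panel, a different scale). RPIA lies under all of its neighbours in the upper panel, and TALDO1 lies above 37 of 40 in the lower one.

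TALDO1 and RPIA had the lowest p of the 8 by the DESeq2 Wald test, while by edgeR and limma-voom NADK was lower than RPIA. The genes whose pattern over the 4 libraries was most like that of TALDO1, by the root mean square difference of centred log2 normalized counts over 12923 genes, were CDPF1 (0.0382), SLC6A6 (0.0434) and CDC42P6 (0.0463), and 73 genes lay within 0.1. For RPIA they were PEAK1 (0.0106), LOXL3 (0.0185) and CTDP1 (0.0202), with 48 genes within 0.1. These 4 values per gene describe likeness and carry no test.

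Other genes of the pathway and of NADPH production, 21 tested of 23 listed, held 0 called genes, with 9 estimates above and 12 below 0 and a median log2 fold change of -0.14. Cadmium libraries lay below both controls for 7 of them and above both for 2. Over all genes tested 1.13% were called, 19.9% lay below both controls and 20.3% above both. The mitochondrial NADP enzyme IDH2 had the lowest p by DESeq2, with 3010 and 1557 normalized counts in the controls against 1089 and 1291 in the resistant cells, which gave a log2 fold change of -0.94 ± 0.39 and an unadjusted p of 0.0147 by the DESeq2 Wald test (adjusted p 0.426). ME2, a mitochondrial malic enzyme that works mainly with NAD, had a log2 fold change of -1.10 ± 0.49, with overlapping groups. H6PD, which makes NADPH in the endoplasmic reticulum, was at -0.55 ± 0.28. PRPS2, which uses ribose phosphate for nucleotides, was at -0.97 ± 0.52, also with overlapping groups. It had 6350 (control 2) and 1843 (control 3) normalized counts, against 1968 (cadmium 1) and 2213 (cadmium 2). None of these passed the adjusted threshold.

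Enzymes that use NADPH, 21 tested, also held 0 called genes, with 7 estimates above and 14 below 0 and a median of -0.27. NQO1, a quinone reductase, had 6778 and 6912 normalized counts in the controls against 9253 and 15105 in the resistant cells, which gave a log2 fold change of 0.83 ± 0.33 (adjusted p 0.365 by the DESeq2 Wald test). The reductases BLVRB, AKR1A1 and AKR1B1 had estimates of -0.56 ± 0.27, -0.57 ± 0.30 and -0.72 ± 0.38, and in each the cadmium libraries lay below both controls. That held for 9 of the 21 genes tested, and 1 lay above both. Over all genes tested the shares were 19.9% below and 20.3% above. Of 11 genes in a glycolysis list 0 were called, 3 were above and 8 below 0, and the median was -0.11. The list also holds TIGAR (0.24 ± 0.41), which is not an enzyme of glycolysis itself and is among those above 0. HK1 (-0.47 ± 0.29), PFKL (-0.40 ± 0.25), GPI (-0.42 ± 0.37) and GAPDH (0.22 ± 0.29) had the lowest p-values there by the DESeq2 Wald test, which put none of the 11 under an unadjusted p of 0.05. By edgeR's quasi-likelihood test and by limma-voom PFKL had unadjusted p-values of 0.0455 and 0.0482, with adjusted p-values of 0.627 and 0.669.

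The NRF2 pathway list, 15 genes tested and with NQO1, TXNRD1 and GSR also among the NADPH users, held 2 called genes, both higher in the cadmium-resistant cells, with 11 estimates above and 4 below 0 and a median of 0.23. HMOX1, the heme oxygenase, rose from 1469 and 786 normalized counts in the controls to 6436 and 6141, a log2 fold change of 2.48 ± 0.36 (adjusted p 1.58e-08 by the DESeq2 Wald test). SLC7A11, which imports cystine for glutathione, rose from 1860 and 2996 to 8075 and 9674, a log2 fold change of 1.87 ± 0.33 (adjusted p 1.77e-05 by the same test). By edgeR's quasi-likelihood test both had an adjusted p of 0.588. FTL, the ferritin light chain, had a log2 fold change of 0.79 ± 0.30 (adjusted p 0.324 by the DESeq2 Wald test). Estimates over all genes tested were above 0 for 9410 and below 0 for 10424. The NRF2 list was chosen with earlier results of these data known, so its 2 called genes are no independent contrast. The 8 NADPH enzymes had no called member, and the difference between the lists was not tested. With 1.13% of all genes tested called, 0 of 8 does not set these enzymes apart from other genes.

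**Figure D4:**
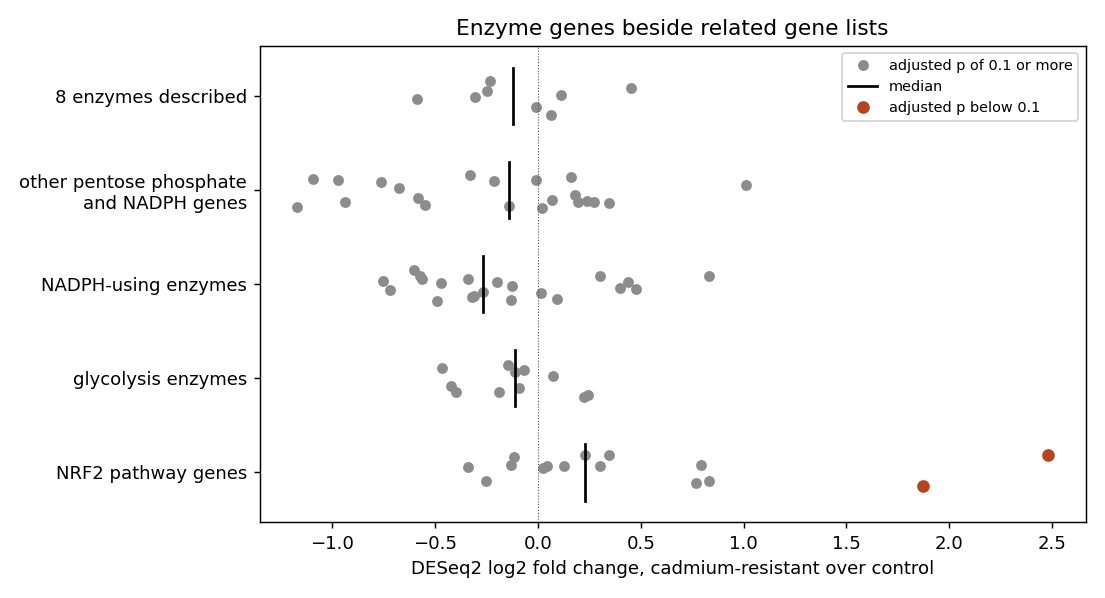
DESeq2 log2 fold change, cadmium-resistant over control (x axis), of the genes tested in each list (y axis), with the median as a line. Orange points have an adjusted p below 0.1, and the 2 of them, HMOX1 at 2.48 and SLC7A11 at 1.87, are in the NRF2 pathway list.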

How the data were processed

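The authors extracted total RNA, and a sequencing core prepared the libraries (with an mRNA-seq kit, per the labels) and read both ends. Reads were trimmed with bbduk, aligned to hg38 with HISAT2 and assigned to Ensembl 105 genes with featureCounts 2.0.1, as the methods and the submitters' processing notes state. The deposited table holds raw counts per gene. Its header sets an annotation and an output file alone, so each mate was counted, strand was not used and reads shared by genes were dropped. Counting both mates (70.6 to 71.5% of low counts were even) overstates the number of fragments.

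Counts were tested with DESeq2 1.42.0 (R 4.3.3), group as the single term, all 4 libraries, adjusted p below 0.1. Independent filtering removed genes under a mean of 7.65. Alternatives were edgeR 4.0.16, limma 3.58.1, other scalings and filters, halved counts and leaving out each library. On simulated data DESeq2 recovered directions and sizes, but with 2 libraries a group it made more false calls than its threshold allows. Normalized counts are counts divided by size factors of 0.94 to 1.06. Promoters and motifs were read with Python 3.11.15.

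The members and lists were chosen with earlier results of these data known. In each list beside the members, every called gene and the 4 with the lowest p and a mean of at least 50 normalized counts were named.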

Additional observations from a re-analysis of the deposited data

How the results depend on the processing

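No paired analysis was possible because the count table numbers the controls 2 and 3, its header letters them A and B and the labels number them 1 and 2, so no number joins a control to a cadmium library. Over all genes, 119 were called higher and 106 lower. With edgeR and with limma-voom both counts were 0, upper-quartile factors gave 152 and 88, and leaving out 1 library gave 9 to 2678 higher and 5 to 3511 lower. Members called were 0 with all libraries under every alternative run, and 0 to 3 when 1 library was left out. It was 3 without control 2 (PGD, TKT and NADK) and 3 without control 3 (RPIA, ME1 and IDH1). The median log2 fold change of the members ranged from -0.21 to 0.29 over the fits without 1 library, the upper end without control 2. Over those fits log2 fold changes ranged from -0.45 to 0.003 for IDH1, -0.63 to 0.26 for ME1, -0.24 to 0.43 for PGD, -0.24 to 0.26 for PGLS, -1.15 to 0.32 for RPIA and -0.17 to 0.44 for TKT. PGLS also changed sign with limma-voom (0.02) and with upper-quartile factors (0.049). TALDO1 and NADK kept their direction under every alternative. The antioxidant core was in 3 members, and in 5 in its looser form. The cause of these differences was not tested, and with 2 libraries a group the spread between libraries, not depth, sets the width of the intervals.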
